A study of Arabidopsis thaliana with 9 samples.

Results

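The comparison of 4'-OH-2,5-DCB with solvent covered 6 of the 9 arrays of an Arabidopsis thaliana study, 3 arrays per group, and the members were those titled 4'-OH-2,5-DCB and Control. RNA came from whole plantlets grown for 21 days on agar with MS nutrients. Exposed plantlets had 5 mg per L of 4'-OH-2,5-DCB, the 4'-hydroxylated form of the polychlorinated biphenyl 2,5-dichlorobiphenyl (2,5-DCB), in that medium for the whole period, and Control plantlets had only its carrier, acetone. The other 3 arrays, from plantlets on 50 mg per L of 2,5-DCB, entered the fit only to steady the estimate of the spread. Exposed and Control plantlets therefore shared age, medium, light and solvent. Each treatment used 6 boxes of 5 plantlets, and no source used here says which boxes or plants an array held, so p-values measure the spread between arrays, which may be technical.

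Polychlorinated biphenyls are persistent chlorinated pollutants that plants take up from soil and water. Plants oxidise such compounds to hydroxylated forms with cytochrome P450 enzymes, join them to sugars with UDP-glycosyltransferases or to glutathione with glutathione S-transferases, and store the products in the vacuole or the cell wall. In soil, bacteria and fungi also make hydroxylated forms, so a root can meet a metabolite such as 4'-OH-2,5-DCB directly.

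Each gene was represented by 1 probe set, a group of array probes read as 1 value, and its level is the deposited log2 signal. In all, 16548 genes were tested, among them 59.5% of the protein-coding genes of the RefSeq table. A gene was called changed at an adjusted p under 0.05 in limma, two-sided, and a difference is 4'-OH-2,5-DCB minus Control on the log2 scale. Levels of different probe sets are not compared with each other.

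The first 4'-OH-2,5-DCB array stood apart from the other 8 before any gene was examined. The SD of its values over genes was 1.68, and the other 8 arrays had SDs of 2.13 to 2.20. It correlated with its closest array at 0.927, whereas each of the other 8 had a closest array at 0.987 to 0.990. With genes sorted by mean level into 4 classes of 4137, this array's median difference from the Control mean was 0.89 in the dimmest class and -0.53 in the brightest. Replicates 2 and 3 stayed between -0.01 and 0.06 of the Control mean in every class. The array is called the compressed array here, and named genes and counts are given with all 9 arrays and again without it.

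**Figure D1:**
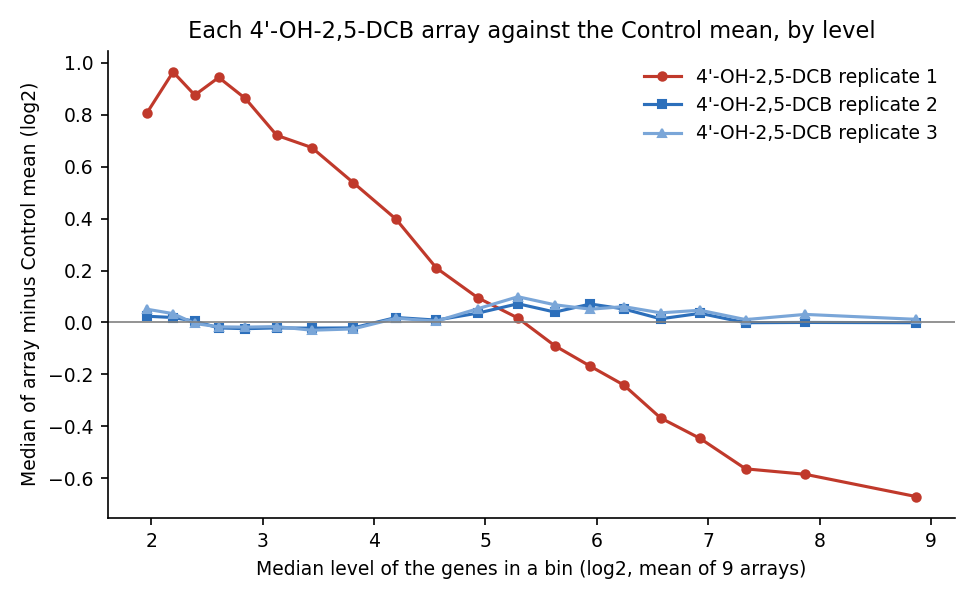
The horizontal axis is the level of genes sorted into 20 bins of equal size (log2, mean of 9 arrays), and the vertical axis is the median of 1 array's values minus the Control mean in that bin (log2). Each line is 1 array of 4'-OH-2,5-DCB: replicate 1 runs from well above 0 for dim genes to well below 0 for bright genes, and replicates 2 and 3 stay near 0.

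The balance of rises and falls with 4'-OH-2,5-DCB depended on the arrays and probe sets counted. Of 16548 genes, 479 were called (2.89%), 164 higher (0.991%) and 315 lower (1.9%). Without the compressed array 1187 genes were called (7.17%), 565 higher (3.41%) and 622 lower (3.76%). The fits with and without that array shared 476 called genes, and 0 of these changed direction. All 479 called genes had 3 exposed arrays beyond the 3 Control arrays, which held for 22.6% of all genes. The median difference over all genes was 0.10 with all arrays and 0.02 without the compressed one. Counted over all probe sets, named or not and with repeated rows of values included, 644 were called higher and 560 lower. The 745 of these that the annotation does not list held only 505 distinct rows, 262 higher and 243 lower. With arrays weighted by their fit 906 genes were higher and 892 lower. Called rises had a median size of 1.18 and called falls of -1.40, or 0.79 and -1.01 without the compressed array.

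The compressed array shaped which genes could be called. In the dimmest class of genes 16 were called higher and 2 lower, and in the brightest class 45 higher and 142 lower. Leaving it out gave 33 higher and 19 lower in the dimmest class, and 237 higher and 264 lower in the brightest. Single Control arrays mattered as well: without Control replicate 1, 2 or 3 the count was 199, 90 or 169. It was 246 without 4'-OH-2,5-DCB replicate 2 and 435 without replicate 3, and 316, 254 or 249 without 2,5-DCB replicate 1, 2 or 3. Across all 9 such left-out fits, 85 genes were called every time, 18 of them higher and 67 lower. Where a named gene lost its call in one of the left-out fits, that is given with it below. Of the 479 called genes, 55 had a functional name in the annotation or RefSeq, 22 higher and 33 lower, and 424 had only a locus number. Over all 16548 tested genes, 1891 had such a name and 14657 only a locus number, a similar share. Without the compressed array 142 named genes were called, 68 higher and 74 lower.

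**Figure D2:**
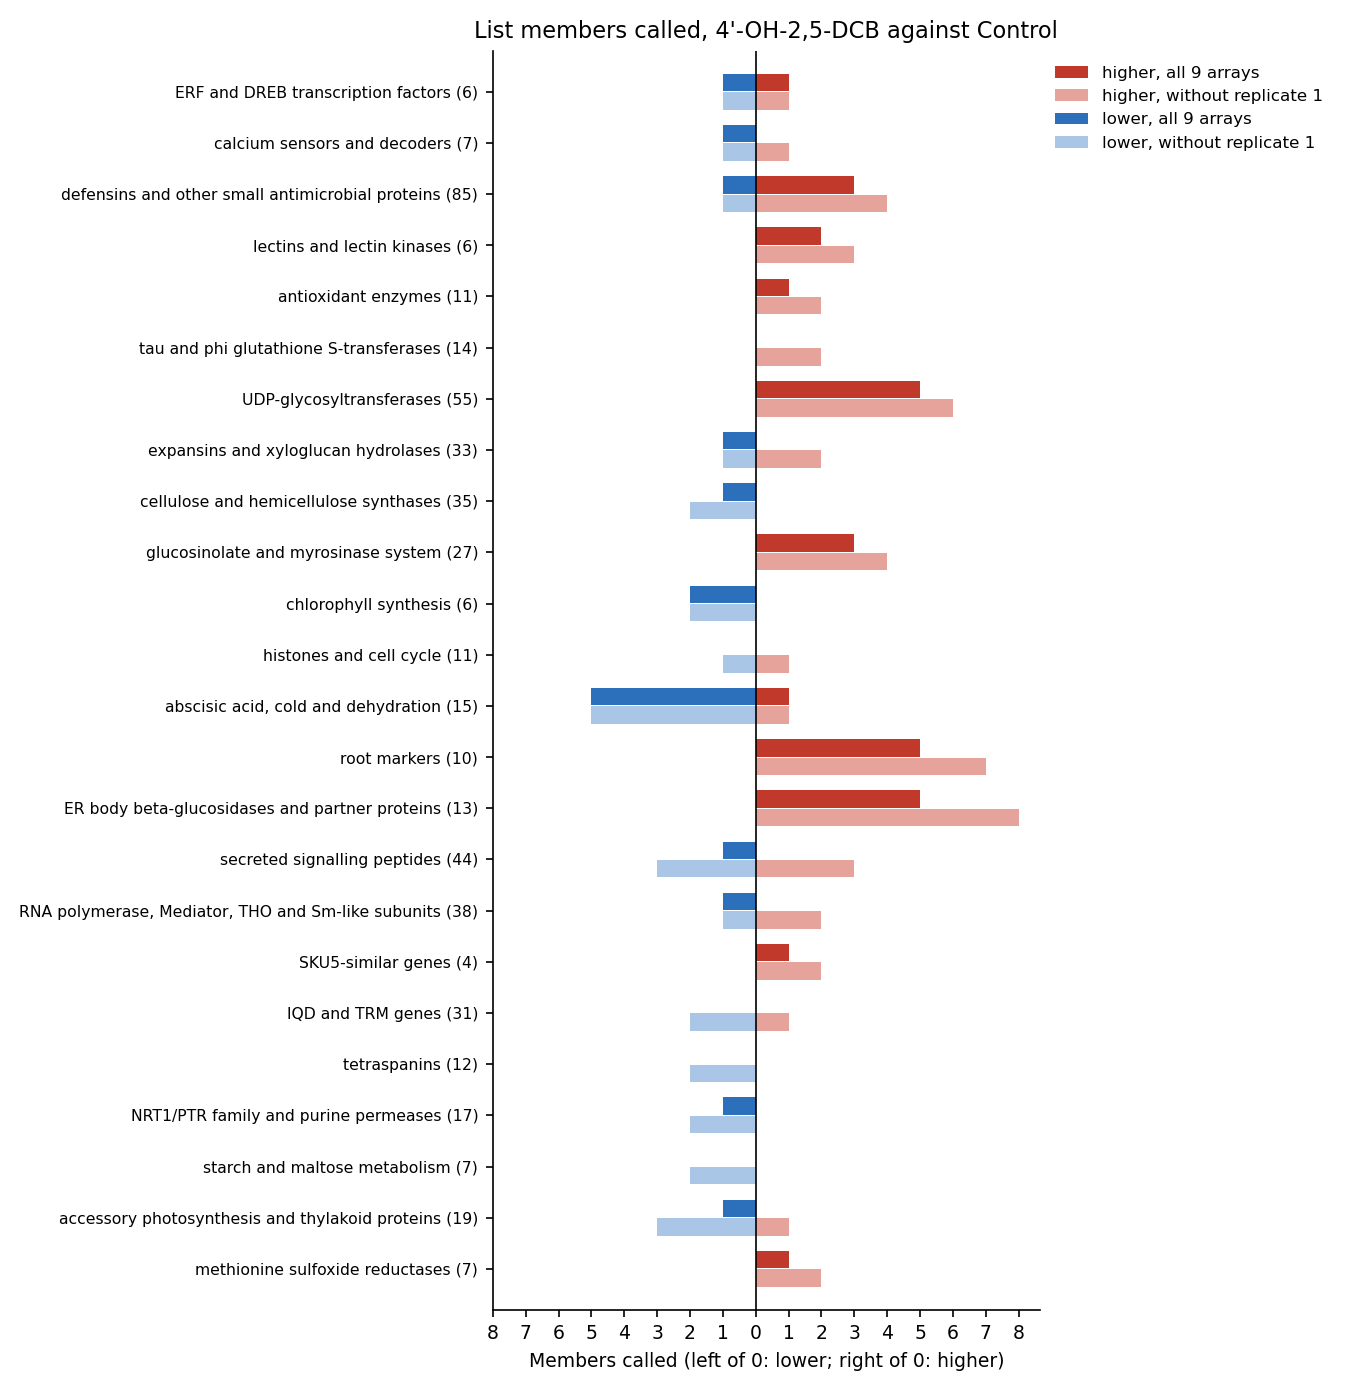
Bars show how many members of each gene list were called lower (left of 0) or higher (right of 0) with 4'-OH-2,5-DCB than in Control, with all 9 arrays (dark) and without replicate 1 of 4'-OH-2,5-DCB (pale). The number in brackets is how many members were tested, and each list drawn has more than 1 call in at least one fit. The cold and dehydration list has 5 members called lower, and the ER body list has 5 called higher, or 8 without replicate 1.

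Cold and dehydration proteins made up the largest named group of falls. These genes encode small hydrophilic proteins that protect membranes and enzymes when cells lose water, and cold and abscisic acid switch them on. Of 15 tested members of the abscisic acid, cold and dehydration list, 5 fell and 1 rose, in both fits. Over all genes 1.9% were called lower, or 3.76% without the compressed array. The list's median difference was -0.45 with all arrays and -0.33 without the compressed one, against 0.10 and 0.02 over all genes. The mean log2 level of the 15 members lay between 5.53 and 5.87 on the exposed arrays and between 6.52 and 6.94 on the Control arrays.

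COR15A, a chloroplast cold-protective protein, read 7.24, 7.83 and 7.61 on the exposed arrays, against 11.20, 11.27 and 10.34 on the Control arrays. That is a difference of -3.37 ± 0.37 (SE), or 10.4-fold (adjusted p = 0.00321). Its neighbour and near relative COR15B read 4.84, 4.75 and 4.65 with 4'-OH-2,5-DCB and 7.87, 7.80 and 7.43 in Control. The COR15B difference was -2.96 ± 0.21 (adjusted p = 0.00111), and the highest exposed value lay well under the lowest Control value. COR15A and COR15B are similar in sequence, so part of each signal could come from the other. The differences without the compressed array were -3.21 for COR15A (adjusted p = 0.00504) and -3.01 for COR15B (adjusted p = 0.00124).

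KIN2, another cold- and abscisic acid-induced protein, read 6.49, 7.93 and 8.04 with 4'-OH-2,5-DCB and 10.37, 10.31 and 9.88 in Control. The lowest value was on the compressed array, and the groups stayed apart without it, with -2.20 (adjusted p = 0.00391) against -2.70 ± 0.41 with it (adjusted p = 0.0113). COR47, a dehydrin, averaged 8.80 ± 0.81 with 4'-OH-2,5-DCB and 10.82 ± 0.17 in Control (SD, n = 3 each). Its difference was -2.02 (adjusted p = 0.0186), or -1.58 without the compressed array (adjusted p = 0.00427). LEA, a dehydrin-like late embryogenesis abundant protein, averaged 4.63 ± 0.26 with 4'-OH-2,5-DCB and 6.63 ± 0.28 in Control (SD, n = 3 each), a difference of -2.0 (adjusted p = 0.00676), or -2.06 without the compressed array (adjusted p = 0.00704). The member that rose was AT2G46140, which RefSeq lists as late embryogenesis abundant 27, by 0.77 (adjusted p = 0.0317), or 0.80 without the compressed array (adjusted p = 0.0144). COR15A, COR15B and LEA kept their calls in every left-out fit. KIN2 lost its call without Control replicate 2 (adjusted p = 0.0647), and COR47 without Control replicate 1, 2 or 3 (0.0579, 0.0936 and 0.0723). AT2G46140 lost its call without any one of the 8 other arrays (0.057 to 0.125).

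Single regulators from several families also fell, and most tested members of those families were not called. PUB19, a U-box ubiquitin ligase that restrains abscisic acid and drought responses, had the largest fall of any gene. It read 3.34, 4.01 and 3.51 on the exposed arrays, against 8.03, 8.19 and 6.84 on the Control arrays, so every exposed value lay far below every Control value. The difference was -4.07 ± 0.35, or 16.8-fold (adjusted p = 0.00144), and -3.93 without the compressed array (adjusted p = 0.00255). PUB19 was the 1 member called among 20 tested ubiquitin ligases of the U-box, RING and F-box classes, whose median difference was -0.05, or -0.15 without the compressed array.

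Of 6 tested ERF and DREB factors, 1 fell and 1 rose in both fits. ORA47, an AP2/ERF transcription factor that activates jasmonate synthesis genes after wounding, read 6.86, 7.08 and 6.86 with 4'-OH-2,5-DCB and 9.03, 9.76 and 9.20 in Control. Its difference was -2.40 ± 0.29 (adjusted p = 0.00493), or -2.36 without the compressed array (adjusted p = 0.00704). OPCL1, a peroxisomal ligase of jasmonate synthesis, read 7.02, 8.35 and 8.43 with 4'-OH-2,5-DCB and 9.89, 10.12 and 9.59 in Control. The OPCL1 difference of -1.93 (adjusted p = 0.0271) shrank to -1.48 without the compressed array (adjusted p = 0.00886), where its value was lowest. OPCL1 lost its call without Control replicate 1, 2 or 3 (adjusted p = 0.0933, 0.128 and 0.0707) and without 2,5-DCB replicate 2 (0.0564). It was 1 of only 2 tested genes on the jasmonate list. In the other direction, tny, a DREB-type factor of the same AP2/ERF family as ORA47, read 4.83, 4.54 and 4.34 with 4'-OH-2,5-DCB and 3.40, 3.31 and 3.31 in Control. The tny difference was 1.23 (adjusted p = 0.0175), or 1.10 without the compressed array (adjusted p = 0.0161). It lost its call without Control replicate 1, 2 or 3 (0.0601, 0.0882 and 0.0723) or 4'-OH-2,5-DCB replicate 2 (0.0515).

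Among 7 tested calcium sensors and decoders, 1 fell with all arrays, and the median difference was 0.13, or -0.12 without the compressed array. CML38, a calmodulin-like calcium sensor induced by wounding and low oxygen, averaged 5.25 ± 0.45 with 4'-OH-2,5-DCB and 7.47 ± 0.20 in Control (SD, n = 3 each). It fell by 2.22 (adjusted p = 0.00312) and by 2.01 without the compressed array (adjusted p = 0.00255). CML23, another calmodulin-like protein, was called higher without that array, by 0.61 (adjusted p = 0.0438), against 0.54 with it (adjusted p = 0.134). WRKY22, a transcription factor of flagellin-triggered immunity and the 1 call among 7 WRKY genes, averaged 6.74 ± 0.20 with 4'-OH-2,5-DCB and 8.53 ± 0.23 in Control (SD, n = 3 each). It fell by 1.78 (adjusted p = 0.00493), or by 1.86 without the compressed array (adjusted p = 0.00411), and CML38 and WRKY22, like PUB19 and ORA47, kept their calls in every left-out fit. PTI1-4, SRC2 and SIS, which belong to neither of these families, also fell. PTI1-4, a kinase that acts downstream of the oxidative-burst kinase OXI1, had a difference of -1.22 (adjusted p = 0.0102), or -1.16 without the compressed array (adjusted p = 0.0091). SRC2, a membrane-bound C2-domain protein, had -1.17 (adjusted p = 0.0157), or -1.03 (adjusted p = 0.0106). SIS, a small serine-rich protein named for its induction by salt, had -1.23 (adjusted p = 0.0283), or -1.28 (adjusted p = 0.0229). PTI1-4 lost its call without Control replicate 2 or 3 (0.0583 and 0.0509), and SRC2 without Control replicate 1, 2 or 3 (0.0687, 0.0785 and 0.05, at the threshold). SIS lost it without Control replicate 1, 2 or 3 (0.0963, 0.13 and 0.0735), 2,5-DCB replicate 3 (0.0541) or 4'-OH-2,5-DCB replicate 2 or 3 (0.069 and 0.0667).

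**Figure D3:**
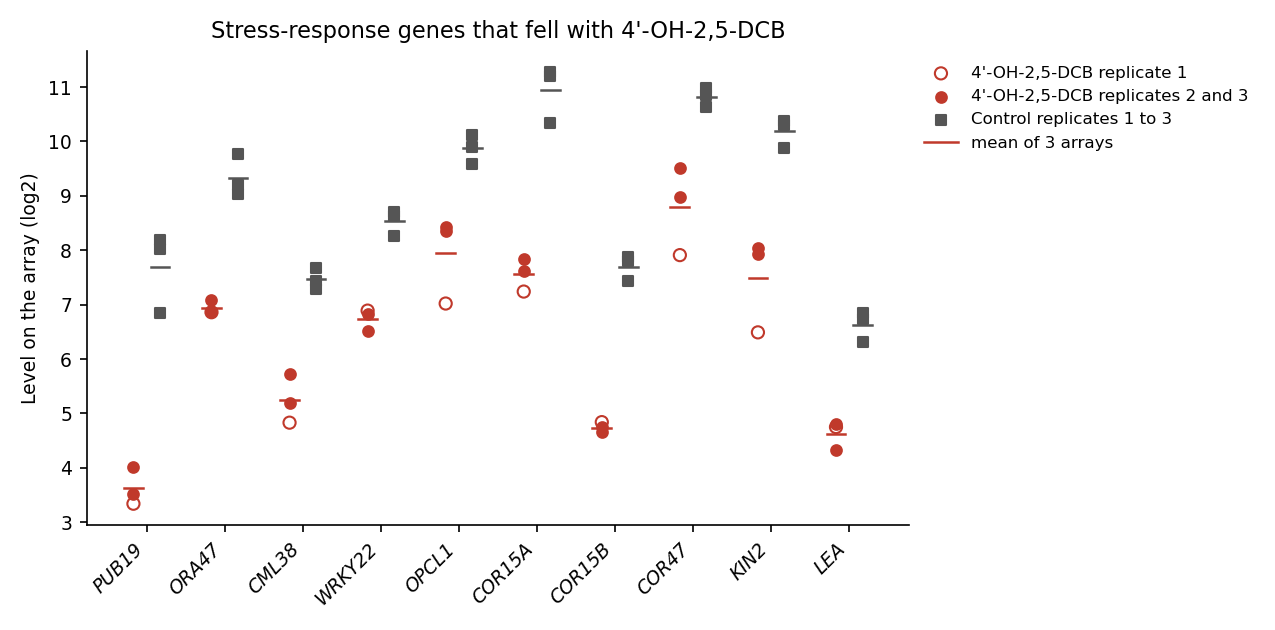
Each point is the log2 level of 1 gene on 1 array, with 4'-OH-2,5-DCB on the left of each pair (circles, replicate 1 open) and Control on the right (squares), and short lines are means of 3 arrays. The 10 genes drawn were all called lower, and every exposed point lies below every Control point, as in every gene called lower. Over all genes this held for 11.4%. Replicate 1 is lowest by the widest margins for KIN2, COR47 and OPCL1, and is also lowest for PUB19, COR15A and CML38.

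On the auxin list and on the list of gibberellin, brassinosteroid and cytokinin genes, 1 member each was called with all arrays. WES1, a GH3 enzyme that joins auxin and salicylic acid to amino acids, averaged 6.13 ± 0.33 with 4'-OH-2,5-DCB and 7.73 ± 0.15 in Control (SD, n = 3 each). The WES1 difference was -1.61 (adjusted p = 0.00989), or -1.52 without the compressed array (adjusted p = 0.0118). It was the 1 call among 17 tested members of the auxin list, and it lost its call without Control replicate 2 (0.0605). RR18, a type-B response regulator that carries cytokinin signals to DNA and the 1 call among 12 members of the other list, averaged 4.18 ± 0.55 with 4'-OH-2,5-DCB and 5.99 ± 0.56 in Control (SD, n = 3 each). Its difference was -1.81 (adjusted p = 0.0229), or -2.08 without the compressed array (adjusted p = 0.00868). RR18 lost its call without Control replicate 1 or 2 (0.0882 and 0.113), 2,5-DCB replicate 2 or 3 (0.0502 and 0.0511) or 4'-OH-2,5-DCB replicate 2 (0.0611).

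Single membrane transporters were called in both directions. AT5G52050, listed in RefSeq as Detoxification Efflux Carrier 50, belongs to the MATE family of exporters and was the 1 tested gene of the ABC and MATE list. It read 4.32, 4.78 and 4.96 with 4'-OH-2,5-DCB and 6.60, 6.95 and 7.01 in Control, a difference of -2.17 ± 0.28 (adjusted p = 0.00599), or -1.99 without the compressed array (adjusted p = 0.0069). It kept its call in every left-out fit. NAXT1, a nitrate exporter of the root plasma membrane, averaged 7.94 ± 0.39 with 4'-OH-2,5-DCB and 9.09 ± 0.13 in Control (SD, n = 3 each). The NAXT1 difference was -1.14 (adjusted p = 0.0265), or -0.92 without the compressed array (adjusted p = 0.011). The genes next to it on the chromosome, AT3G45660 and AT3G45670, fell as well, with -1.63 and -2.06, or -1.76 and -2.18 without the compressed array. AT1G53210, listed as a sodium/calcium exchanger, had -1.21 (adjusted p = 0.0499), or -0.87 without the compressed array (adjusted p = 0.00976). CHX16, the 1 call among 8 tested cation/proton exchangers, rose by 1.76 (adjusted p = 0.02), or by 1.74 (adjusted p = 0.0247). NAXT1 was the 1 call with all arrays among 17 NRT1/PTR family and purine permease genes tested by name. PUP18 of that list was called lower only without the compressed array, with -0.98. Over all genes 2.89% were called, or 7.17% without that array.

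Of these transporters, NAXT1 lost its call without Control replicate 1, 2 or 3 (adjusted p = 0.0938, 0.125 and 0.0723) and without 2,5-DCB replicate 2 or 3 (0.0565 and 0.0506). AT1G53210 lost it in 7 of the 8 other left-out fits (0.0614 to 0.201), the exception being the fit without 4'-OH-2,5-DCB replicate 3. CHX16 lost it without Control replicate 2 or 3 (0.0793 and 0.0723) or 4'-OH-2,5-DCB replicate 2 (0.0614).

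Among the lists of plastid functions, 2 enzymes of chlorophyll synthesis and 1 plastoglobule protein were called with all arrays, and all 3 fell. The chlorophyll list had 2 of 6 tested members lower in both fits. Over all genes 1.9% were called lower, or 3.76% without the compressed array. HEMA2, a glutamyl-tRNA reductase that starts tetrapyrrole synthesis, read 6.55, 6.30 and 6.54 with 4'-OH-2,5-DCB and 7.30, 7.58 and 7.24 in Control. The HEMA2 difference was -0.91 ± 0.16 (adjusted p = 0.0186), or -0.95 without the compressed array (adjusted p = 0.00839). PORB, which reduces protochlorophyllide in the light, read 9.43, 10.46 and 10.69 with 4'-OH-2,5-DCB and 11.49, 11.63 and 11.63 in Control. Its difference was -1.39 ± 0.29 (adjusted p = 0.037), or -1.01 without the compressed array (adjusted p = 0.00414), where its lowest value stood. The other 4 tested members of the list were not called, with differences of -0.79 for HEME1, -0.54 for CHLM, -0.10 for HEME2 and 0.53 for HEMA3, or -0.34, -0.16, -0.03 and 0.41 without the compressed array. PGL34, a plastoglobule protein, had -0.76 (adjusted p = 0.0301), or -0.70 without the compressed array (adjusted p = 0.0155). HEMA2 lost its call without Control replicate 1, 2 or 3 (0.0591, 0.0931 and 0.0536) or 4'-OH-2,5-DCB replicate 2 (0.0614). PORB and PGL34 each lost it in 7 of the 8 other left-out fits (0.0637 to 0.153 for PORB and 0.0585 to 0.125 for PGL34), and kept it without 4'-OH-2,5-DCB replicate 3.

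The lists of light-harvesting, photosystem and Calvin cycle genes had no calls. None of 8 tested nuclear light-harvesting and photosystem genes and none of 3 Calvin cycle genes was called in either fit. The light-harvesting list had a median difference of -0.56 with all arrays and -0.29 without the compressed one. LHB1B2, a light-harvesting protein of photosystem II, read 9.95, 11.04 and 11.16 with 4'-OH-2,5-DCB and 11.86, 11.59 and 11.27 in Control (adjusted p = 0.20, or 0.164 without the compressed array). The compressed array held the lowest of these values. Among 63 tested genes of the plastid genome 0 were called in either fit, and their median difference was -0.16, or -0.04 without the compressed array.

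More plastid genes were called once the compressed array was left out. PIFI, a chloroplast protein of non-photochemical plastoquinone reduction, then had -0.86 (adjusted p = 0.0144), and PGRL1B, a protein of cyclic electron flow, had -0.61 (adjusted p = 0.0474). AT4G38100, listed as CURVATURE THYLAKOID 1D, was higher by 0.76 (adjusted p = 0.0286). Of 19 tested accessory photosynthesis and thylakoid proteins, 3 were lower in that fit (PIFI, PGRL1B and PGL34) and 1 higher (AT4G38100). Over all genes 3.76% were called lower in it and 3.41% higher. Of 7 tested genes of starch and maltose metabolism, 2 were lower in that fit, against 3.76% of all genes. PWD (AT5G26570), a dikinase that phosphorylates starch before its breakdown, had -0.92 (adjusted p = 0.0241), and DPE1, which rearranges maltotriose, had -0.63 (adjusted p = 0.0499). With all arrays the differences were -1.22 for PIFI (adjusted p = 0.0569), -0.59 for PGRL1B (0.0934), 0.55 for AT4G38100 (0.238), -1.44 for PWD (AT5G26570) (0.0904) and -0.77 for DPE1 (0.0657). HEMA2, PORB, PGL34, PIFI, PGRL1B and DPE1 are drawn with both values in the plot of plastid and RNA genes.

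The lists of wall enzymes and secreted peptides had 1 call each with all arrays, shares close to that of all genes. Of 33 tested expansins and xyloglucan hydrolases, EXPA20, a wall-loosening expansin, was called, with -1.04 (adjusted p = 0.0288), or -1.01 without the compressed array (adjusted p = 0.0256). Leaving that array out added 2 xyloglucan hydrolases on the higher side, XTH20 with 0.63 (adjusted p = 0.0207) and XTH33 with 0.52 (adjusted p = 0.0392), against 0.50 and 0.68 with all arrays (adjusted p = 0.167 and 0.0789). Of 35 genes for cellulose, hemicellulose and their acetylation, TBL28, of a family that acetylates wall polysaccharides, had -1.06 (adjusted p = 0.0322), or -0.91 without the compressed array (adjusted p = 0.0265). CSLD2, a cellulose synthase-like protein of root hairs, joined it without that array, with -0.53 (adjusted p = 0.0459), against -0.66 with it (adjusted p = 0.0789). RALFL18, of the rapid alkalinization factor-like peptides, had -1.24 (adjusted p = 0.0136), or -1.09 without the compressed array (adjusted p = 0.00963), and was the 1 call among 44 secreted signalling peptides. With the compressed array left out, 3 of the 44 were higher (RALFL29, CLE44 and IDL4, by 0.44 to 0.96) and 3 lower (RALFL18, CLE40 and PLS, by -0.76 to -1.09). In that fit 3.41% of all genes were called higher and 3.76% lower. With all arrays the adjusted p was 0.097 for RALFL29, 0.376 for CLE44, 0.216 for IDL4, 0.0969 for CLE40 and 0.172 for PLS.

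EXPA20 lost its call without Control replicate 1, 2 or 3 (0.101, 0.134 and 0.0537), 2,5-DCB replicate 1 or 2 (0.0555 and 0.0528) or 4'-OH-2,5-DCB replicate 3 (0.0674). TBL28 lost it without Control replicate 1, 2 or 3 (0.0748, 0.147 and 0.0948), 2,5-DCB replicate 2 or 3 (0.0628 and 0.0623) or 4'-OH-2,5-DCB replicate 2 (0.0746), and RALFL18 without Control replicate 2 or 3 (0.0782 and 0.062). PRA1.C, of the prenylated Rab acceptors that act in vesicle traffic, read 5.04, 4.87 and 5.73 with 4'-OH-2,5-DCB and 7.99, 8.34 and 7.99 in Control, the 1 call among 16 members. Its difference was -2.89 (adjusted p = 0.0074), or -2.81 without the compressed array (adjusted p = 0.0111). PRA1.C kept its call in every left-out fit.

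On the rising side, small antimicrobial proteins gave the largest named changes. Plant defensins are secreted cysteine-rich peptides, and PDF1.2 transcripts are a standard marker of jasmonate and ethylene defence. PDF1.2b read 9.63, 8.86 and 7.78 on the exposed arrays, against 6.04, 3.45 and 5.22 on the Control arrays. Both groups were widely spread, with Control replicate 2 the lowest, and they did not overlap, as for every called gene. The difference was 3.85 ± 0.73, or 14.4-fold (adjusted p = 0.0275), and 3.42 without the compressed array (adjusted p = 0.04). PDF1.2 read 9.19, 8.16 and 7.22 with 4'-OH-2,5-DCB and 5.82, 3.07 and 4.85 in Control, and differed by 3.61 ± 0.74 (adjusted p = 0.0355). The PDF1.2 difference of 3.11 was no longer called without the compressed array, which held the highest value (adjusted p = 0.0513). PDF1.2, PDF1.2b and PDF1.2c are near-identical copies, and signal from one copy could reach the probe sets of another.

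PDF2.5, a defensin known to bind cadmium, read 8.37, 7.88 and 7.28 with 4'-OH-2,5-DCB and 5.96, 5.09 and 5.89 in Control. Its difference was 2.19 ± 0.31 (adjusted p = 0.00946), or 1.93 without the compressed array (adjusted p = 0.0093), and it kept its call in every left-out fit, but not in the fit of only the 6 exposed and Control arrays (adjusted p = 0.0558). PDF1.2b lost its call without Control replicate 2 or 3 (0.0942 and 0.0825), 2,5-DCB replicate 3 (0.0567) or 4'-OH-2,5-DCB replicate 2 (0.073). PDF1.2 lost it without those arrays (0.124, 0.102, 0.068 and 0.0853) and without 2,5-DCB replicate 2 (0.0628). Of 85 tested defensins and related peptides, 3 rose and 1 fell with all arrays, and 4 rose and 1 fell without the compressed one. Over all genes 0.991% were called higher with all arrays and 3.41% without the compressed one. The 4 of 85 is close to the second share. The median difference of the 85 was 0.37 with that array and 0.03 without it. PDF1.2c and LCR68 were called only without it, by 1.31 (adjusted p = 0.0031) and 0.71 (adjusted p = 0.0156), against 1.03 and 0.53 with it (adjusted p = 0.0553 and 0.196). PDF1.2c was dim, at 1.99, 2.74 and 2.91 with 4'-OH-2,5-DCB and 1.54, 1.52 and 1.5 in Control.

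The defensin-like gene that fell was LCR54, with 3.55, 2.95 and 3.71 with 4'-OH-2,5-DCB and 5.29, 6.25 and 6.10 in Control. The LCR54 difference was -2.48 ± 0.34 (adjusted p = 0.00769), or -2.55 without the compressed array (adjusted p = 0.00934), and its call held in every left-out fit. ChiC, a class V chitinase that cuts the fungal wall polymer chitin, averaged 6.88 ± 0.33 with 4'-OH-2,5-DCB and 5.92 ± 0.10 in Control (SD, n = 3 each). The ChiC difference of 0.96 (adjusted p = 0.0283) became 1.14 without the compressed array (adjusted p = 0.00255). ChiC lost its call without any one of the other 8 arrays (0.0552 to 0.13). EFR, the receptor kinase that recognises bacterial elongation factor Tu, was lower by 0.90 without the compressed array (adjusted p = 0.00347). With all arrays it read 6.37, 4.81 and 4.82 with 4'-OH-2,5-DCB and 5.63, 5.76 and 5.73 in Control, and the compressed array alone lay above Control (adjusted p = 0.573).

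Some genes of the ER body were higher with 4'-OH-2,5-DCB. ER bodies are compartments of the endoplasmic reticulum, found in roots and young seedlings of Arabidopsis and its relatives, that store beta-glucosidases able to release toxic products when tissue is damaged. Of 13 tested genes for ER body enzymes and partner proteins, 5 were called higher and 0 lower, or 8 higher without the compressed array. Over all genes 0.991% were called higher, or 3.41% without that array. The list's median difference was 1.02, or 1.19 without that array, against 0.10 and 0.02 over all genes. Not every member was higher: ATA27, a beta-glucosidase named for the anther, had -0.67 (adjusted p = 0.66), or -1.17 without the compressed array (adjusted p = 0.515). The mean log2 level of the 13 was 6.20 to 6.51 on the exposed arrays and 5.29 to 5.42 on the Control arrays.

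BGLU21 and BGLU22, neighbouring root beta-glucosidases, had the largest differences of the list. BGLU21 read 8.08, 8.49 and 8.06 with 4'-OH-2,5-DCB and 6.31, 4.91 and 6.15 in Control, and differed by 2.42 ± 0.37 (adjusted p = 0.0116), or by 2.49 without the compressed array (adjusted p = 0.0137). BGLU22 read 6.12, 6.94 and 6.39 with 4'-OH-2,5-DCB and 4.99, 4.19 and 4.88 in Control, and differed by 1.79 ± 0.26 (adjusted p = 0.00998), or by 1.97 (adjusted p = 0.00525). The 2 genes are close copies and may share signal, and both kept their calls in every left-out fit. PYK10, the main ER body beta-glucosidase, read 11.32, 12.10 and 11.67 with 4'-OH-2,5-DCB and 10.64, 10.31 and 10.81 in Control. The PYK10 difference was 1.11 ± 0.24 (adjusted p = 0.044), or 1.30 without the compressed array (adjusted p = 0.013).

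JAL22 and JAL31, jacalin-related lectins found in complexes with PYK10, differed by 1.02 (adjusted p = 0.044) and 0.98 (adjusted p = 0.019). In the fit without the compressed array they differed by 1.19 (adjusted p = 0.012) and 0.90 (adjusted p = 0.0135). That fit added the lectin JAL34 with 1.29 (adjusted p = 0.0077), NAI2, a protein needed to form ER bodies, with 1.34 (adjusted p = 0.0154), and NAI1, the bHLH factor that switches on the group, with 0.51 (adjusted p = 0.0459). With all arrays the adjusted p was 0.0583 for JAL34, 0.442 for NAI2 and 0.418 for NAI1. NAI2 read 7.35 on the compressed array and 9.47 and 9.0 on the other exposed arrays, against 8.10, 7.57 and 8.02 in Control. PYK10 and JAL22 lost their calls without any one of the other 8 arrays (0.0659 to 0.191 for PYK10 and 0.0754 to 0.187 for JAL22). JAL31 lost it without Control replicate 1, 2 or 3 (0.0533, 0.0965 and 0.08) or 4'-OH-2,5-DCB replicate 2 (0.0637). In the fit of only the 6 exposed and Control arrays none of the 5 was called, with adjusted p of 0.0548 for BGLU21, 0.0646 for BGLU22, 0.129 for PYK10, 0.158 for JAL22 and 0.0957 for JAL31.

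The ER body genes overlap with the list of root markers. Of 10 tested root markers, 5 were called higher with all arrays and 7 without the compressed one, and all of these are also ER body genes. EXPA7, a root-hair expansin and the only tested member outside the ER body list, differed by 0.55 (adjusted p = 0.303), or by 0.28 without the compressed array (adjusted p = 0.412). The 10 markers had a mean log2 level of 6.73 to 7.29 on the exposed arrays and of 5.44 to 5.93 on the Control arrays. The 5 tested leaf markers were not called, with mean levels of 8.64 to 9.19 on the exposed arrays and 9.32 to 9.48 on the Control arrays, and a median difference of -0.50, or -0.32 without the compressed array. No source used here states how much of each sample was root, and its part in these results was not tested. In RNA from whole plants, less tissue of a kind and less RNA per cell of that kind cannot be told apart. RCA, the Rubisco activase of leaves, averaged 11.39 ± 0.28 with 4'-OH-2,5-DCB and 11.57 ± 0.03 in Control (SD, n = 3 each). Of 2 pollen markers and 2 seed markers 0 were called with all arrays, and VGD1 of pollen (-1.30, adjusted p = 0.0432) and OLEO3 of seed oil bodies (-1.10, adjusted p = 0.0135) were lower without the compressed array, against -0.79 and -0.89 with it (adjusted p = 0.384 and 0.0746).

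Enzymes that join sugars to small molecules rose in a minority of cases. Of 55 tested UDP-glycosyltransferases, 5 rose and 0 fell with all arrays, and 6 rose without the compressed one. Over all genes 0.991% and 3.41% were called higher in these fits. The median difference of the 55 was 0.18, or 0.12 without that array. UGT72E2, which glucosylates lignin alcohols, read 5.20, 6.21 and 5.59 with 4'-OH-2,5-DCB and 4.49, 2.96 and 3.48 in Control. Its difference was 2.02 ± 0.40 (adjusted p = 0.0319), or 2.26 without the compressed array (adjusted p = 0.021). UGT73B4, of a stress-induced subfamily active on phenolic compounds, read 7.29, 6.57 and 6.09 with 4'-OH-2,5-DCB and 5.17, 5.23 and 5.02 in Control. The UGT73B4 difference was 1.51 ± 0.30 (adjusted p = 0.0313), or 1.19 without the compressed array, where it was highest (adjusted p = 0.0198).

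UGT73B2, a flavonoid glucosyltransferase of the same subfamily, differed by 1.34 (adjusted p = 0.0499), or by 1.01 without the compressed array (adjusted p = 0.0301). UGT76B1, which glucosylates isoleucic acid and salicylic acid, differed by 0.90 (adjusted p = 0.0372), or by 1.03 (adjusted p = 0.0106). UGT84A4, which makes glucose esters of hydroxycinnamic acids, was dim, at 3.17 ± 0.18 with 4'-OH-2,5-DCB and 2.16 ± 0.21 in Control (SD, n = 3 each). It differed by 1.01 (adjusted p = 0.0223), or by 0.92 without the compressed array (adjusted p = 0.0169). UGT76D1 was called only without that array, with 0.58 (adjusted p = 0.0391), against 0.76 with it (adjusted p = 0.0707).

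None of the 5 glycosyltransferases called with all arrays kept its call in every left-out fit. UGT72E2 lost it without Control replicate 2 or 3 or any 1 of the 5 other arrays of the exposed groups (adjusted p = 0.0506 to 0.13), and kept it without Control replicate 1. UGT73B4 lost it without Control replicate 1, 2 or 3 (0.0978, 0.119 and 0.114), 2,5-DCB replicate 2 (0.0627) or 4'-OH-2,5-DCB replicate 2 (0.0726). UGT73B2 and UGT76B1 lost it without any one of the other 8 arrays (0.0573 to 0.196 and 0.0615 to 0.139). UGT84A4 lost it without Control replicate 1 or 2 (0.0865 and 0.113) or 2,5-DCB replicate 2 (0.0502).

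The cytochrome P450 and glutathione S-transferase lists had no calls with all arrays. Of 26 tested cytochrome P450 genes 0 were called with all arrays. Without the compressed array 1 was lower, CYP78A9, a growth-related enzyme of flowers and fruit, with -0.56 (adjusted p = 0.038), against -0.37 with it (adjusted p = 0.36). The 26 had a median difference of 0.12, or -0.02 without that array, and only 26 of the 240 P450 genes in RefSeq are tested under such a name, so most of the family was not examined by name. Of 14 tau and phi glutathione S-transferases 0 were called with all arrays. GSTU25 read 5.21, 6.15 and 5.82 with 4'-OH-2,5-DCB and 4.2, 3.96 and 4.29 in Control, without overlap. Its difference of 1.57 had an adjusted p of 0.0713, and without the compressed array it was called, at 1.83 (adjusted p = 0.0347). GSTU22 was the other member called in that fit, with 0.86 (adjusted p = 0.0478), against 0.71 with all arrays (adjusted p = 0.144). Without the compressed array 2 of 14 transferases were thus higher and 1 of 26 P450 genes lower. Over all genes 3.41% were called higher in that fit and 3.76% lower.

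Redox and wall-oxidising genes rose in small numbers. MSRB9, a methionine sulfoxide reductase that repairs oxidised proteins, read 7.58, 7.85 and 7.31 with 4'-OH-2,5-DCB and 6.02, 5.31 and 5.87 in Control. The MSRB9 difference was 1.85 ± 0.30 (adjusted p = 0.015), and the same 1.85 without the compressed array (adjusted p = 0.0185). MSRB5, of the same subfamily, was called only in that second fit, with 1.10 (adjusted p = 0.0128) against 0.68 with all arrays (adjusted p = 0.325), and these were 2 of 7 tested members. In that fit 3.41% of all genes were called higher. Prx37, a secreted class III peroxidase of the cell wall, read 7.56, 8.57 and 7.91 with 4'-OH-2,5-DCB and 5.96, 5.69 and 5.98 in Control. Its difference was 2.14 ± 0.33 (adjusted p = 0.0131), or 2.36 without the compressed array (adjusted p = 0.0077), the 1 call among 8 peroxidases tested by name. Peroxidase genes that carry only a locus number are not in that count, so it does not describe the whole family.

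The gene next to Prx37, AT4G08780, read 5.07, 6.52 and 6.08 with 4'-OH-2,5-DCB and 4.36, 3.87 and 3.48 in Control. It was called only without the compressed array, with 2.40 (adjusted p = 0.0432), against 1.99 with it (adjusted p = 0.0997). Among other oxidative genes, sks16, of the SKU5-similar family related to multicopper oxidases, read 5.33, 4.61 and 4.84 with 4'-OH-2,5-DCB and 3.44, 3.40 and 3.31 in Control. The sks16 difference was 1.54 ± 0.21 (adjusted p = 0.0074), or 1.34 without the compressed array (adjusted p = 0.0031), and it kept its call in every left-out fit. Its relative sks15 was called only without the compressed array, with 1.01 (adjusted p = 0.0453) against 1.48 with it (adjusted p = 0.0789), and 4 members of the family were tested. MSRB9 lost its call without Control replicate 2 or 3 (0.0768 and 0.0543) or 4'-OH-2,5-DCB replicate 2 (0.0515), and Prx37 without Control replicate 2 or 3 (0.0736 and 0.0516).

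**Figure D4:**
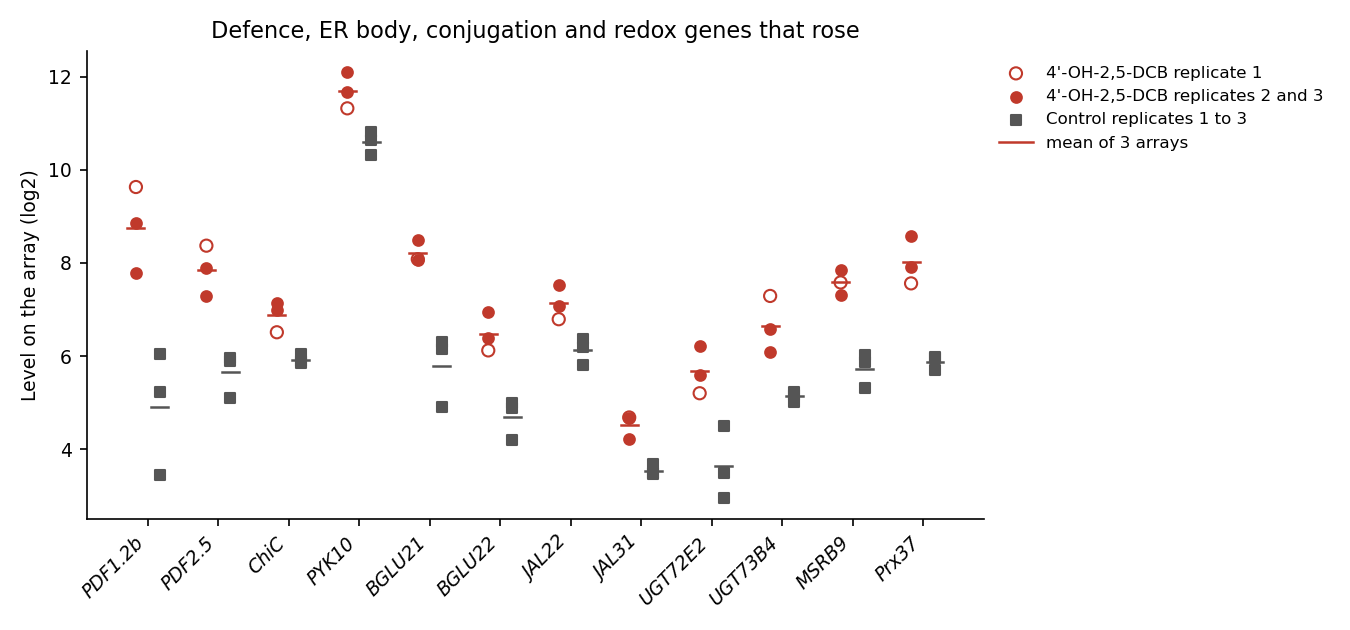
Each point is the log2 level of 1 gene on 1 array, with 4'-OH-2,5-DCB on the left of each pair (circles, replicate 1 open) and Control on the right (squares), and short lines are means of 3 arrays. The 12 genes drawn were all called higher, and the exposed points lie above the Control points, as in every gene called higher. Over all genes this held for 11.2%. The Control points of PDF1.2b, BGLU21 and UGT72E2 are spread widest.

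Phenolic and lipid barrier genes had isolated rises. DFR, which reduces dihydroflavonols on the way to anthocyanins, averaged 5.64 ± 0.37 with 4'-OH-2,5-DCB and 4.68 ± 0.21 in Control (SD, n = 3 each). Its difference was 0.96 (adjusted p = 0.0443), or 0.94 without the compressed array (adjusted p = 0.0395), and it was 1 of 6 tested genes of phenylpropanoid and flavonoid synthesis. DFR lost its call without any one of the other arrays (0.0762 to 0.158) except 4'-OH-2,5-DCB replicate 2. FACT, which esterifies fatty alcohols with caffeic acid for suberin-associated waxes, read 6.95, 8.01 and 7.52 with 4'-OH-2,5-DCB and 6.41, 6.47 and 6.35 in Control. FACT was called only without the compressed array, with 1.36 (adjusted p = 0.00504), against 1.09 with it (adjusted p = 0.0547).

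Several genes of RNA production and ribosome assembly were among the named genes called only in the fit without the compressed array. They were picked for that after their values were seen, so no share of their group is implied. IMP4, a protein of the U3 complex that processes ribosomal RNA, differed by 0.58 without the compressed array (adjusted p = 0.0339), and by 0.68 with it (adjusted p = 0.0596). YAO, a nucleolar protein of the same complex, differed by 0.66 (adjusted p = 0.0188), or by 0.60 with that array (adjusted p = 0.071). PRH75, a nucleolar RNA helicase, differed by 0.49 (adjusted p = 0.0471), or by 0.20 with that array (adjusted p = 0.632), and read 8.35 on the compressed array and 9.28 and 9.12 on the other exposed arrays, against 8.83, 8.58 and 8.73 in Control. PGY1, a protein of the large ribosomal subunit, differed by 0.75 (adjusted p = 0.0423), or by 0.56 with the compressed array (adjusted p = 0.232).

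AT1G13030, listed as coilin, the scaffold of Cajal bodies, differed by 0.54 without the compressed array (adjusted p = 0.0304), or by 0.49 with it (adjusted p = 0.117). Of 38 subunits of RNA polymerases, Mediator, THO and Sm-like complexes, 2 were higher in that fit, NRPB12 of RNA polymerase by 0.76 (adjusted p = 0.0285) and LSM6B of the Sm-like ring by 0.64 (adjusted p = 0.0456). With all arrays these differed by 0.49 for NRPB12 (adjusted p = 0.335) and 0.56 for LSM6B (adjusted p = 0.131). THO7 (AT5G16790), of the THO complex in messenger RNA export, was lower in both fits, by -0.89 (adjusted p = 0.0477) and by -1.02 without the compressed array (adjusted p = 0.0141). It lost its call without any one of the other 8 arrays (0.066 to 0.195). The 38 had a median difference of 0.15, or 0.20 without the compressed array.

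**Figure D5:**
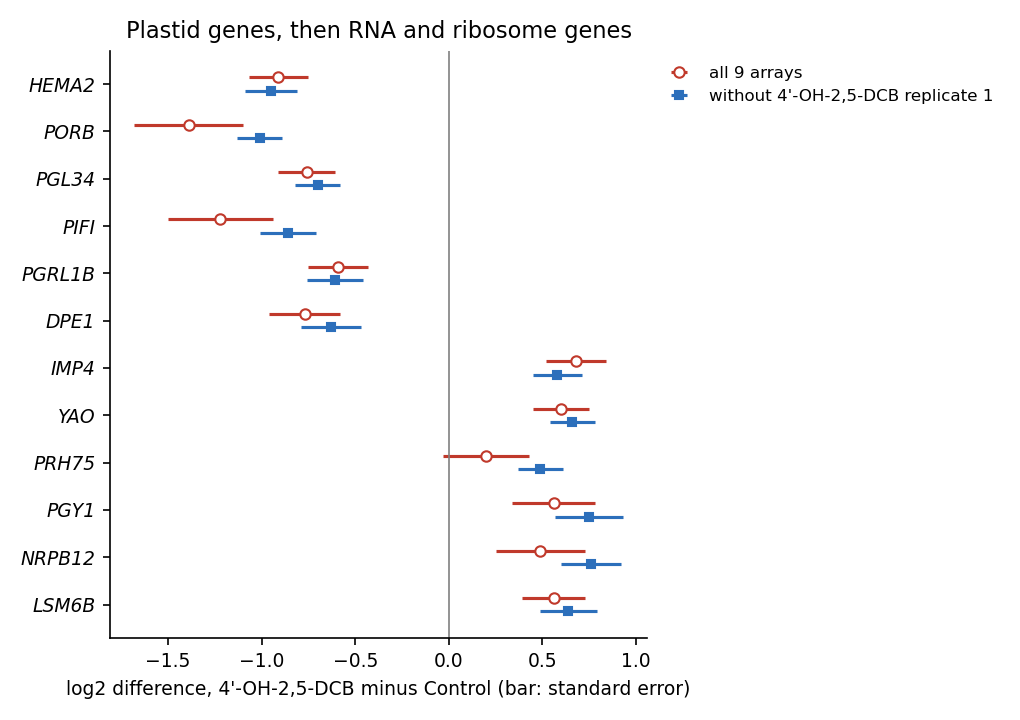
Points are log2 differences, 4'-OH-2,5-DCB minus Control, with standard errors, for 6 plastid genes (top) and 6 RNA and ribosome genes (bottom), with all 9 arrays (open circles) and without replicate 1 of 4'-OH-2,5-DCB (filled squares). The 12 genes drawn were called in at least one fit and chosen by their values: these 6 plastid genes lie left of 0 and these 6 RNA and ribosome genes right of 0, while AT4G38100 and HEMA3 (higher) and THO7 (AT5G16790) (lower) are not drawn, and the standard errors of PORB, PIFI, PRH75 and NRPB12 are wider with replicate 1.

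Single genes of primary metabolism were called in the same fit. PYRB, an enzyme of pyrimidine synthesis, FAC1, an AMP deaminase, SDH1-1, a succinate dehydrogenase subunit, and AVA-P2, a subunit of the vacuolar proton pump, were called only without the compressed array. They were higher by 0.56 for PYRB (adjusted p = 0.0271), 0.72 for FAC1 (adjusted p = 0.0126), 0.52 for SDH1-1 (adjusted p = 0.0354) and 0.47 for AVA-P2 (adjusted p = 0.0465). With all arrays the differences were 0.27 for PYRB (adjusted p = 0.545), 0.32 for FAC1 (0.552), 0.32 for SDH1-1 (0.407) and 0.48 for AVA-P2 (0.112). These 4 and the next 5 genes were also picked after their values were seen. Among 15 bHLH factors 1 was lower in that fit, PIF7, and among 26 homeodomain and bZIP factors 1, BZIP60, against 3.76% of all genes called lower. AFR, an F-box protein of phytochrome A signalling, had -1.0 (adjusted p = 0.0244), and PIF7, a bHLH factor that phytochrome controls, had -0.64 (adjusted p = 0.0244). BZIP60, a factor of the unfolded protein response, had -0.76 (adjusted p = 0.0373). HIS1-3, a linker histone induced by drought, had -1.17 (adjusted p = 0.0161), and TET8, a tetraspanin of extracellular vesicles, had -0.77 (adjusted p = 0.00953). With all arrays the differences were -0.87 for AFR (adjusted p = 0.0633), -0.62 for PIF7 (0.0622), -1.48 for BZIP60 (0.175), -0.91 for HIS1-3 (0.108) and -1.14 for TET8 (0.0661).

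Several of the largest changes belong to genes with no functional name in the annotation. AT5G39120 had the largest measured rise, with 7.05, 7.67 and 7.21 with 4'-OH-2,5-DCB and 2.58, 1.5 and 3.53 in Control. It differed by 4.78 ± 0.43 (adjusted p = 0.00144), and by 4.91 without the compressed array (adjusted p = 0.00255). Its Control mean of 2.54 lies below 2.98, the mean level under which the dimmest 4137 of the 16548 genes fall, so the size of its rise is uncertain. Its neighbours AT5G39110 and AT5G39130 rose by 2.84 (adjusted p = 0.00678) and 1.01 (adjusted p = 0.0336), or by 2.78 and 1.03 without the compressed array. AT5G39130 was dim and lost its call in 7 of the 8 other left-out fits (up to 0.129). Further rises were AT5G26260 (2.56), AT5G23830 (2.41), AT2G16005 (2.18), AT3G46280 (2.17), AT2G17080 (2.10), AT4G36430 (2.09), AT4G28940 (2.06) and AT5G37990 (2.01). Without the compressed array these 8 ranged between 1.78 for AT3G46280 and 2.47 for AT5G23830, and all were still called. Of these, AT5G26260, AT5G23830, AT2G17080 and AT4G28940 kept their calls in every left-out fit, as did AT5G39110 and AT5G39120. AT2G16005 lost its call without any 1 Control or 2,5-DCB array (0.0535 to 0.134), and AT3G46280 without Control replicate 1, 2 or 3 (0.0753, 0.113 and 0.0853) or 2,5-DCB replicate 3 (0.0522). AT4G36430 lost it without Control replicate 1, 2 or 3 (0.0684, 0.0782 and 0.0731) or 4'-OH-2,5-DCB replicate 2 (0.0515), and AT5G37990 without Control replicate 1 or 2 (0.0524 and 0.0557) or 4'-OH-2,5-DCB replicate 2 (0.05, at the threshold).

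Falls of that kind were AT1G80865 (-3.36), AT5G13181 (-3.30), AT5G15660 (-3.23), AT1G73510 (-3.12), AT4G28140 (-2.93), AT2G34930 (-2.89), AT5G13210 (-2.84), AT1G61890 (-2.78), AT2G25460 (-2.74), AT5G01760 (-2.71) and AT1G78070 (-2.70). AT1G80865 read 4.37, 3.53 and 4.21 with 4'-OH-2,5-DCB and 7.5, 7.58 and 7.09 in Control. Without the compressed array the 11 falls ranged between -2.32 for AT5G13210 and -3.71 for AT5G13181. AT5G15660 and AT5G13210 lost their calls without Control replicate 2 (adjusted p = 0.0505 and 0.0576). AT4G28140, with Control values of 6.45, 8.07 and 5.15, lost its call in 7 of the 8 other left-out fits (0.0646 to 0.104) and kept it without Control replicate 3. The other 8 falls kept their calls in every left-out fit.

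Some called genes lay next to each other on the chromosomes. The RefSeq order gave 10409 pairs of neighbouring protein-coding genes with both members tested. In 34 pairs both genes were called in the same direction, and in 1 pair in opposite directions. Without the compressed array the counts were 88 and 16. Of 260 genes called lower that had a tested neighbour, 51 (19.6%) had a neighbour called lower, against 2.35% of 13688 uncalled genes. Of 144 genes called higher with a tested neighbour, 13 (9.03%) had a neighbour called higher, against 1.42% of the uncalled genes. Without the compressed array the shares were 24.2% against 4.46% for falls and 7.84% against 4.90% for rises. None of the 34 pairs had overlapping gene spans in RefSeq, though 6 of 88 pairs did without the compressed array. Pairs included COR15A with COR15B, BGLU21 with BGLU22, OPCL1 with AT1G20500, LEA with AT2G21480, and NAXT1 with AT3G45660. Neighbouring genes are often copies of each other, and cross-hybridisation between copies was not tested.

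Of the 66 lists, 32 had at least 1 call with all arrays and 44 without the compressed array. Among those with none in either fit were the NAC and C2H2 zinc finger factors, glutaredoxins and thioredoxins, pectin enzymes, phosphate starvation, iron and metal homeostasis, nitrogen and sulfur uptake, senescence, ion channels, ubiquitin-conjugating enzymes and proteases, and aldehyde dehydrogenases and glyoxalases. Between 1 and 28 of their members were tested under a functional name, so most rest on few genes. Transcription factor families also had few members under a functional name, 7 for WRKY and 6 for ERF and DREB, so WRKY22, ORA47 and tny stand for a small share of them.

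At 50 mg per L of 2,5-DCB, a higher dose, and against the same Control arrays, several genes had differences of similar sign. PUB19 had -4.07 with 4'-OH-2,5-DCB and -4.71 with 2,5-DCB, COR15A had -3.37 and -2.91, and BGLU21 had 2.42 and 1.68. The 2 comparisons share their Control arrays, and the doses differ, so these pairs are shown side by side only. The direct difference between the exposures was called for 0 genes by limma with all arrays, with 1636 at an unadjusted p under 0.05, and for 63 without the compressed array. Of those 63, 32 were also called against Control in that fit. PDF1.2c was higher with 4'-OH-2,5-DCB than with 2,5-DCB by 1.04 in that fit (adjusted p = 0.0347), EFR was lower by -1.11 (adjusted p = 0.0119) and PIFI lower by -0.96 (adjusted p = 0.0461). The dose and the compound cannot be told apart in that contrast.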

How the data were processed

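Total RNA from whole plants was labelled with biotin and hybridised to whole-transcript Affymetrix arrays, per the labels' protocols. The authors deposited 1 log2 signal for each probe set on each array. Per the submitters' processing notes they used Affymetrix Expression Console, and the sources used here give neither its version nor the summarization and normalization chosen. The 9 arrays had values for all 38408 probe sets. The platform annotation listed 17481, of which 16722 had 1 gene and 759 several, and 20927 were unlisted. Of the probe sets with 1 gene, the one with the highest mean was kept for each gene (148 genes had over 1), which gave 16548 genes. RefSeq TAIR10.1 names were found by gene ID for 16411, and 137 kept the annotation's name. The tested genes cover 16406 of 27562 protein-coding genes.

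All 9 arrays were fitted with 1 term per group in limma 3.58.1 (lmFit, eBayes, R 4.3.3), and p-values were Benjamini-Hochberg adjusted over all genes, with calls under 0.05. The scripts were tested on simulated data. Samples were grouped by their titles. The number of arrays limits the precision.

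Named genes are the 15 largest called rises and 15 largest called falls that do not overlap between groups and are called without 4'-OH-2,5-DCB replicate 1, up to 6 called members of each of 66 gene lists, and their gene-pair mates. Outside this rule, PTI1-4, SRC2, SIS and AT1G53210 were picked from the called genes with a functional name that are on no list. Others of that kind, 2A6, RXW8, pEARLI4, NTMC2T6.2, ATMND1 and LSH5, are not described. The members and lists were chosen with earlier results of these data known, and genes called only without that replicate were picked after their values were seen. Left-out arrays, other scalings, filters and fits were tried as alternatives. Coordinates are left out because no source used here names the build of the probe sets. Same-numbered 4'-OH-2,5-DCB and Control arrays had deviations correlated at -0.247 to 0.0665, so the numbers were not taken to pair them. The result of 1 gene list is not reported here.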

Additional observations from a re-analysis of the deposited data

Results flagged for a closer look

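Probe sets that the platform annotation does not list also differed between the groups. Of 20927 such probe sets, fitted together with all others, 745 were called between 4'-OH-2,5-DCB and Control. These held 505 distinct rows of values, 262 higher and 243 lower. The 16548 tested genes, in their own fit, had 164 higher and 315 lower. The 505 are 3.26% of the 15505 distinct rows among unlisted probe sets. Over all probe sets, with repeated rows counted, 3.13% were called. The 505 rows drew attention because they lie outside the tested genes, and they have no gene name here.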

How the results depend on the processing

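The count of 479 called genes moved with most choices. Leaving out 1 array gave 90 (without Control replicate 2) to 1187 (without 4'-OH-2,5-DCB replicate 1). The count was 98 with only the 6 arrays of both groups and 748 after quantile normalization. It was 1204 over all probe sets, repeated rows included (644 higher, 560 lower), and 1798 with array weights (906 higher, 892 lower). The replicate block gave 237, but the numbers do not pair the arrays. It stayed within 1.5 times of 479 under the other alternatives, including median centring (502), median and MAD scaling (477), a filter on dim genes (685), trend and robust fitting (594) and a 2-fold minimum (374). So it did with only the 5 arrays left when 4'-OH-2,5-DCB replicate 1 was out (592), an alternative chosen after seeing the data.

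Of 77 genes followed singly (the largest changes and every called gene with a functional name), 0 changed direction in any alternative run for single genes. Calls were kept by 69 after quantile normalization, 69 after median centring, 58 after median and MAD scaling, 49 with the replicate block and 30 with only the 6 arrays. The fit without 4'-OH-2,5-DCB replicate 1 kept 76. That fit is not a test of the largest changes, which were chosen partly for being called in it. The median difference over all genes was 0.10 as deposited and 0.03 after each of the 3 scalings. The cause of these shifts was not tested. Probe sets dimmer than about the 25th percentile of mean level (2.98) limit what can be seen of AT5G39120, PDF1.2c, UGT84A4 and XTH20.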
